A study of Homo sapiens with 13 samples.

Results

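The genes that copy DNA and the E2F factors that switch them on were followed in 2 human small cell lung cancer (SCLC) lines with and without FHD-286. The set held 48 genes, chosen by symbol as components of the replication machinery or familiar E2F targets, out of the 56831 rows of each expression table. All 48 were found, and all 48 passed the filter of at least 1 TPM (a length-corrected transcript level that sums to the same total in every library) in at least 3 libraries of a line in H82 and in H146. H82 is a line of the NEUROD1 subtype (SCLC-N) and H146 a line of the other neuroendocrine subtype (SCLC-A). Both were unmodified cells, grown in RPMI1640 with 10% FBS. The RNA-seq data held 6 libraries of untreated cells, 3 from H82 and 3 from H146, and 7 libraries of cells kept for 14 days in 100 nM FHD-286 with fresh drug every 48 h, 3 from H82 and 4 from H146. FHD-286 is an allosteric inhibitor of the ATPases SMARCA4 and SMARCA2, the motors of the SWI/SNF chromatin remodelling complexes. Only 1 line of each subtype was used, the untreated cells got no drug, and the sources used here do not say whether replicates were separate cultures. The p values therefore measure the spread between these libraries.

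DNA replication begins when the origin recognition complex, CDC6 and CDT1 load the MCM2 to MCM7 ring onto DNA, a step called licensing. CDC45 and the GINS complex then join the ring to form the active helicase, polymerases alpha, delta and epsilon copy the strands, and PCNA, its loader RFC and the single-strand binder RPA keep the fork moving. Most of these genes are transcribed late in G1 by E2F factors, which the pocket protein RB1 holds back, and loss of RB1 function is a common feature of SCLC. E2F1, E2F2 and E2F3 are activators, and E2F7 and E2F8 are repressors.

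The neuroendocrine markers of the labelled cell type were present. Those counted, *NEUROD1*, *SYP*, *CHGA*, *INSM1* and *NCAM1*, summed to 610 to 660 TPM in untreated and 178 to 577 TPM in treated H82, and to 1377 to 1679 TPM in untreated and 983 to 1244 TPM in treated H146, where *NEUROD1* itself was at most 0.521 TPM. In H82 *NEUROD1*, *SYP* and *CHGA* were lower in each treated library than in any untreated one. *INSM1* instead had 12.5 to 15.8 TPM untreated and 32.1 to 296 TPM treated, and *NCAM1* 51.8 to 53.7 and 52.5 to 71.1 TPM. In H146 *INSM1* held most of the sum, at 1140 to 1405 TPM untreated and 758 to 1018 TPM treated. The libraries also differed in ways that bear on every value below. The share of TPM in mitochondrial genes was 22.1% to 24.1% in untreated H82 and 12.3% to 14.9% in treated H82, against 7.56% to 8.86% in untreated and 3.82% to 11.4% in treated H146. The median log2 fold change of all genes tested was -0.56 in H82 and 0.25 in H146. Treated H82 replicate 1 stood apart from its partners, with 32 of the 48 genes below the untreated mean against 8 in replicate 2 and 10 in replicate 3. Treated H82 replicate 2 stood apart in other genes. *INSM1*, a neuroendocrine factor, had 296 TPM there against 32.1 and 33.9 TPM in the other treated H82 libraries, and 46 genes with at least 50 TPM in untreated H146 and at most 0.1 TPM in untreated H82 summed to 299 TPM there against 47.4 and 21.8 TPM. In untreated H146 the same 46 genes summed to 8257 to 8987 TPM. Of 5 fibroblast markers (*COL1A1*, *COL1A2*, *COL3A1*, *DCN*, *LUM*), whose level summed to 0.912 to 1.84 TPM in untreated and 7.05 to 33.9 TPM in treated H82, and to 6.68 to 8.59 TPM in untreated and 16.6 to 32.0 TPM in treated H146, *COL3A1* was at 0 in the untreated H82 libraries. Of 5 airway epithelium markers (*EPCAM*, *KRT5*, *SCGB1A1*, *FOXJ1*, *SFTPC*), whose level summed to 709 to 740 TPM in untreated and 272 to 393 TPM in treated H146, *EPCAM* held most, at 676 to 708 TPM and 268 to 381 TPM. In H82 they summed to 1.56 to 2.08 TPM untreated and to 3.31, 33.1 and 1.21 TPM in treated replicates 1 to 3. Immune markers summed to 20.2 TPM at most and endothelial markers to 2.65 TPM at most. The part of these shifts in the changes of the replication genes was not tested, and counts without each treated H82 library are given below.

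The promoters of these genes were searched for the sequence that E2F factors are known to bind. RefSeq promoters (250 bases before to 50 bases after the start, build hg38) were matched for 41 of the 48 genes. The search covered both strands, overlapping matches included, and 4 spellings of the E2F-type motif. These were TTCCCGC as the first, TTCGCGC as the second, TTGCCGC as the third and TTGGCGC as the last. At least 1 match was found in 31 of 41 promoters (75.6%), against 3564 of 27305 in the whole table (13.1%). Other genes of the same pathways, described below, had a match in 27 of 55 promoters (49.1%). Since the set was chosen in part as familiar E2F targets, a share above that of the whole table was built into the choice. The windows below are from members whose levels changed most, with 10 bases on either side of the motif, read 5′ to 3′ along the gene, and with the motif or its reverse complement in capitals.

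ORC1, chr1:52404429-52404455, minus strand: gccacgccgaTTGGCGCgaagttttct

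CDT1, chr16:88803744-88803770, plus strand: cagggcgcccGCGGGAAatttggcggg

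GINS2, chr16:85688969-85688995, minus strand: tctcgccgtgGCGGGAAaacggcggcc

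POLE, chr12:132687344-132687370, minus strand: gggtgggagcGCGCCAAatttctcccc

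E2F1, chr20:33686388-33686414, minus strand: caaaaaggatTTGGCGCgtaaaagtgg

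E2F2, chr1:23531258-23531284, minus strand: ggcacgacgtTTGGCGCtaaaaaaaaa

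E2F3, chr6:20401845-20401871, plus strand: cgggaggaccTTGGCGCgtaaaccgta

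E2F7, chr12:77065686-77065712, minus strand: gcggctcggaGCGCCAAgactccgagg

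The motifs shown for ORC1, CDT1, GINS2, POLE, E2F1 and E2F3 end 11 to 28 bases before the RefSeq start, that of E2F2 34 bases and that of E2F7 126 bases before it. For GINS2 and POLE the RefSeq start lies inside the gene as GENCODE 44 annotates it, so those windows are within the longer gene spans given for them here. The promoter of TK1 held no match, and those of ORC1, CDT1, POLE, E2F1, E2F3 and E2F7 held 2 each. The motif was present among genes that moved and genes that did not. In H82 it was in 2 of 4 promoters of genes that fell, 5 of 8 of genes that rose and 24 of 29 of genes that did not pass the test. In H146 the corresponding counts were 6 of 7, 7 of 8 and 18 of 26. A match describes these letters and not a bound site.

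The set did not move as a block in either line. In H82, 11 of the 48 genes rose and 4 fell (adjusted p under 0.05, limma on log2(TPM + 1) with Benjamini-Hochberg adjustment over all genes). Over all 19770 genes tested in H82 the shares were 13.1% higher and 45.5% lower. The treated libraries lay all above the untreated for 13 members (16.4% of all genes) and all below for 6 (51.4% of all genes). In H146, 10 genes rose and 8 fell, where the shares of all 19585 genes tested were 32.5% higher and 15.5% lower. There the treated libraries lay all above the untreated for 12 members (35.7% of all genes) and all below for 11 (17.3% of all genes). Rises were thus 22.9% of the members in H82 and 20.8% in H146, and falls 8.33% in H82 and 16.7% in H146, the last close to the share of all genes. In RNA from whole cultures, fewer cells in S phase and less RNA per cell cannot be told apart.

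The scale of these counts depends on how libraries are brought to a common level. With the libraries scaled by the median of ratios, 25 members rose and 2 fell in H82, and 6 rose and 21 fell in H146. The median log2 fold change of all genes was then -0.11 in H82 and -0.03 in H146. The shares of all genes given above are for the deposited scale and do not apply to these counts. The 8 falls in H146 passed under each of the 3 other scalings (median of ratios, quantile normalization and TPM without mitochondrial genes), as did 2 of the 4 falls (*E2F2*, *POLE*) and 7 of the 11 rises in H82 and 6 of the 10 rises in H146. The rises of *CDC45*, *POLA2*, *RPA1* and *TK1* in H82 were lost without mitochondrial genes. In H82 the members' median log2 fold change exceeded that of all genes by 0.65 as deposited. The excess was 0.70 under the median of ratios and 0.68 without mitochondrial genes. In H146 the members' median lay below that of all genes, by a difference of -0.24, -0.26 and -0.24 in the same order. These 2 scalings multiply each library by a common factor, so they could hardly change the difference from all genes. Quantile scaling, which could, gave 0.31 in H82 and -0.18 in H146. The members' median itself was 0.10 in H82 and 0.01 in H146. It took the opposite sign without mitochondrial genes in H82 (-0.05) and in H146 (-0.01), and in H146 also under the median of ratios (-0.29) and quantile scaling (-0.12).

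**Figure D1:**
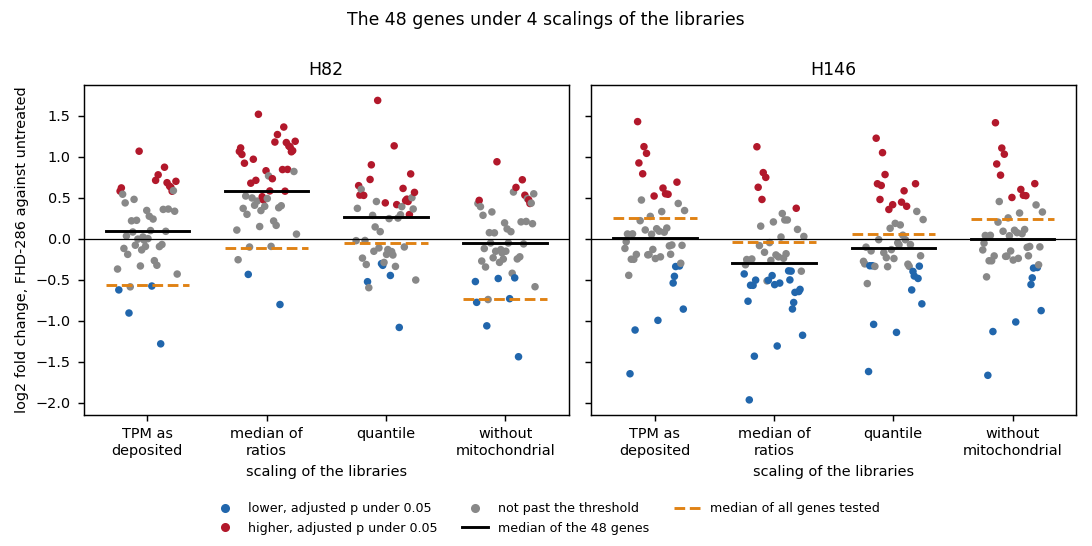
Each point is 1 of the 48 genes (log2 fold change of FHD-286 against untreated, vertical axis, points spread sideways for view) under 4 scalings of the libraries, with the genes' median as a black line and the median of all genes tested as a dashed line. In H82 the black line lies above the dashed line under each scaling and in H146 below it, while the position of the black line relative to 0 changes with the scaling.

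The libraries themselves show where the response was uneven. Against the untreated mean, treated H82 replicate 1 had a median difference of -0.29 over the 48 genes, and replicates 2 and 3 had 0.30 and 0.25. Without replicate 1, 24 members rose in H82 and 5 fell, without replicate 2, 7 rose and 3 fell, and without replicate 3, 7 rose and 4 fell. In H146 the medians were -0.08 and -0.22 in treated replicates 1 and 2 and 0.11 and 0.16 in replicates 3 and 4. Without treated H146 replicate 2, 15 members rose and 8 fell. The shares of all genes called in these fits without 1 library are not given here. Summed over the 48 genes, the level was 4797 to 4974 TPM in untreated H82, 4547, 6897 and 6557 TPM in treated H82 replicates 1 to 3, 7089 to 7367 TPM in untreated H146 and 6080 to 7272 TPM in treated H146.

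**Figure D2:**
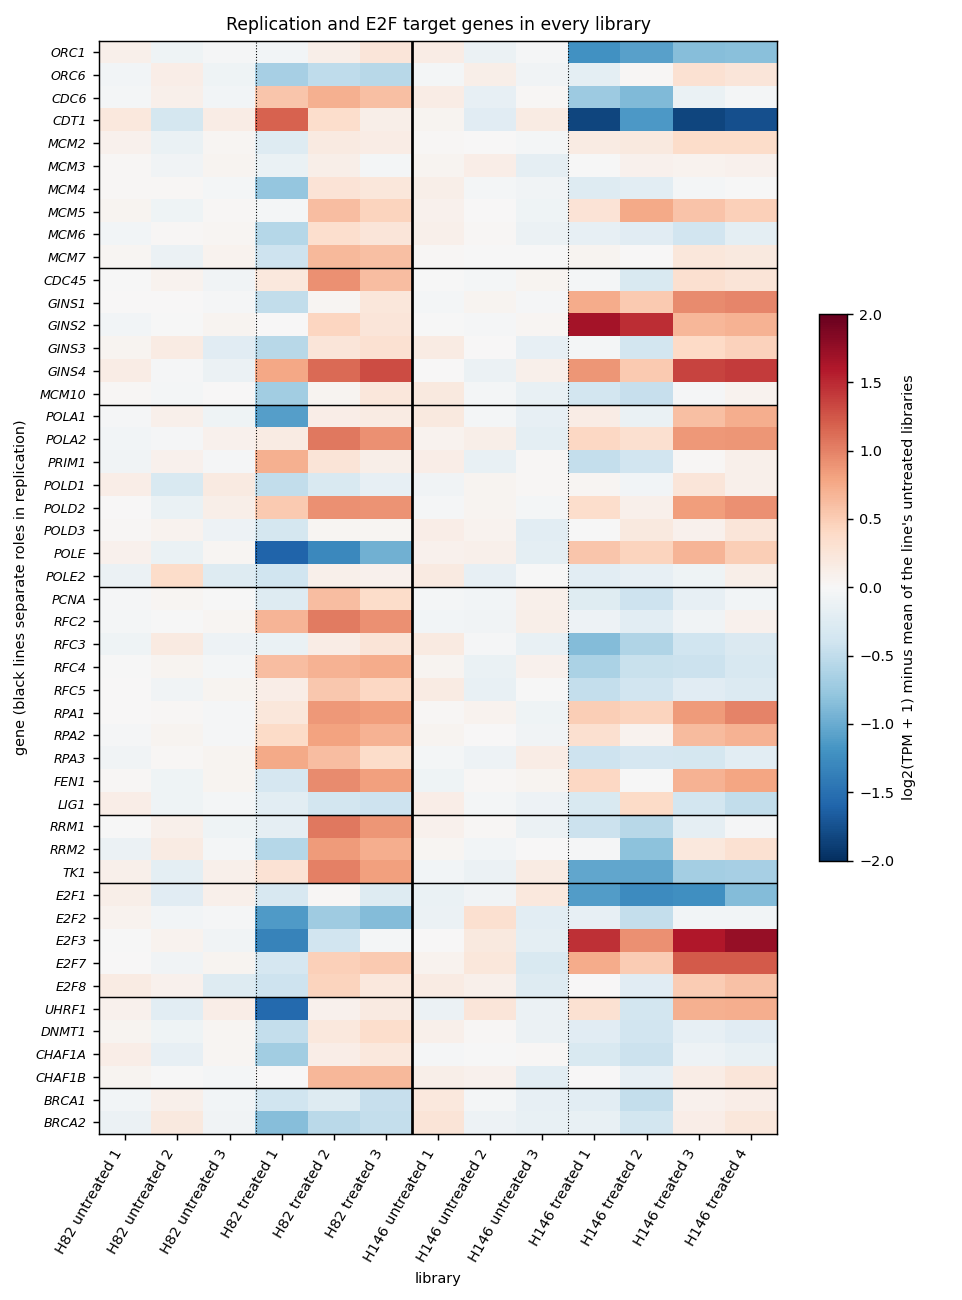
The colour is log2(TPM + 1) of each gene (rows, grouped by role) in each of 13 libraries (columns), minus the mean of the untreated libraries of the same line. Treated H82 replicate 1 is bluer than replicates 2 and 3, with 32 of 48 genes below the untreated mean, and the rows of CDT1, ORC1, TK1 and E2F1 are blue in the 4 treated H146 libraries.

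Among the E2F factors, the activators moved in different directions, and the responses of *E2F1* and *E2F3* differed between the lines under each scaling. *E2F1* (ENSG00000101412.13, hg38 chr20:33675477-33686385, minus strand) had 557, 579 and 706 TPM in the untreated H146 libraries and 282, 256, 261 and 336 TPM in the treated ones. No treated library reached an untreated one, and the fall was -1.11 ± 0.14 (SE) on the log2 scale (adjusted p = 0.000508). In H82 it had 131, 102 and 129 TPM untreated and 95.9, 121 and 99.9 TPM treated, and the groups overlapped (-0.19 ± 0.17, adjusted p = 0.356).

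*E2F2* (ENSG00000007968.7, chr1:23506438-23531233, minus strand) fell in H82. It had 32.5, 29.7 and 30.5 TPM untreated and 13.5, 18.4 and 16.5 TPM treated, so that the groups were apart (-0.91 ± 0.16, adjusted p = 0.00272). It also fell there under the 3 other scalings and whichever library was left out. In H146 it had 45.0, 60.9 and 42.0 TPM untreated and 43.3, 34.8, 46.6 and 46.7 TPM treated, which overlapped (-0.19 ± 0.17, adjusted p = 0.376), though it fell there too under the median of ratios (-0.50, adjusted p = 0.0208).

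*E2F3* (ENSG00000112242.16, chr6:20401879-20493714, plus strand) rose most of the members in H146. It had 15.6, 18.0 and 13.5 TPM untreated and 44.7, 30.3, 49.3 and 54.4 TPM treated, a change of 1.43 ± 0.21 (adjusted p = 0.000923). In untreated H82 it stood far higher, at 88.3, 93.5 and 84.5 TPM. The treated H82 libraries had 34.4, 68.1 and 86.2 TPM, with replicate 1 well below the rest and replicate 3 within the untreated range (-0.59 ± 0.32, adjusted p = 0.154; -0.86 and adjusted p = 0.0483 without treated replicate 3).

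The repressor *E2F7* rose in H146, from 10.3, 11.5 and 7.70 TPM to 16.9, 14.3, 24.1 and 24.1 TPM (0.93 ± 0.22, adjusted p = 0.00988). In H82 it had 13.5, 12.7 and 13.9 TPM untreated and 10.4, 18.9 and 19.5 TPM treated, where replicate 1 again lay on the other side of the untreated libraries (0.22 ± 0.25, adjusted p = 0.48; 0.50 and adjusted p = 0.00705 without it). *E2F7* passed as higher in H82 too under the median of ratios (0.68, adjusted p = 0.0402) and quantile scaling (0.72, adjusted p = 0.0233). *E2F8*, the other repressor, did not pass in either line. It had 6.21, 5.83 and 4.40 TPM untreated and 3.84, 7.78 and 6.44 TPM treated in H82, and 19.4, 18.4 and 14.1 TPM untreated and 17.3, 14.6, 24.9 and 26.3 TPM treated in H146. Its log2 fold changes were 0.08 and 0.22, and quantile scaling gave 0.90 in H82 (adjusted p = 0.0282).

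**Figure D3:**
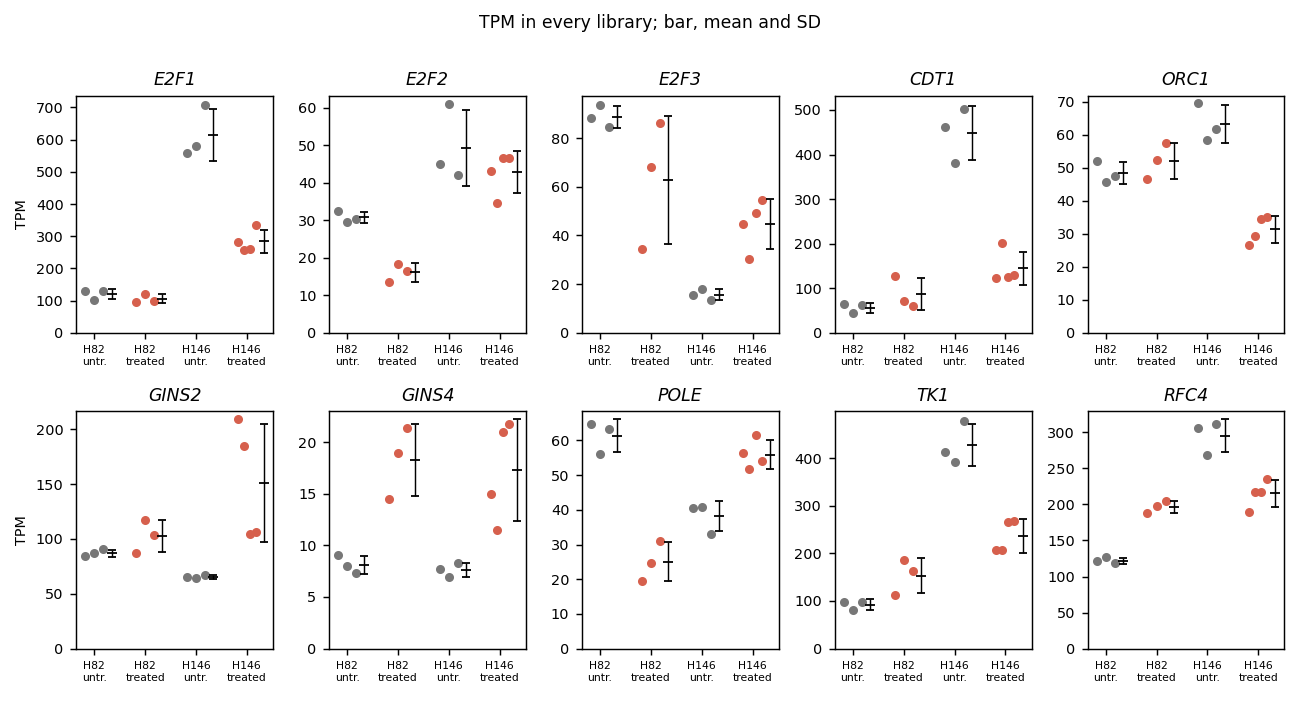
Each panel gives the TPM (vertical axis, from 0) of 1 gene in every library, grey for untreated and red for treated, with the mean and SD as a black bar to the right of each group. E2F1, CDT1, ORC1, TK1 and RFC4 are lower in each treated H146 library than in any untreated one, and GINS4 is higher in the treated libraries of both lines.

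Licensing factors gave the deepest fall of the set. *CDT1* (ENSG00000167513.9, chr16:88803789-88809258, plus strand), which brings the MCM ring to origins, had 462, 382 and 501 TPM in untreated H146 and 124, 201, 124 and 130 TPM in treated H146. Its level in treated cells was 0.323 of the untreated mean (-1.65 ± 0.19, adjusted p = 0.000339). In H82 it was lower to begin with, at 64.4, 43.6 and 61.7 TPM. Treated H82 had 127, 71.1 and 60.4 TPM, of which replicate 3 lay within the untreated range, and the change did not pass (0.54 ± 0.30, adjusted p = 0.16; 1.03 and adjusted p = 0.0316 under the median of ratios).

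*ORC1* (ENSG00000085840.13, chr1:52372829-52404423, minus strand), the largest subunit of the origin recognition complex, went from 69.6, 58.2 and 61.7 TPM to 26.6, 29.2, 34.6 and 35.0 TPM in H146 (-0.99 ± 0.14, adjusted p = 0.000775). In H82 it had 52.1, 45.6 and 47.5 TPM untreated and 46.4, 52.4 and 57.4 TPM treated, with overlap (0.10 ± 0.14, adjusted p = 0.562; 0.58 and adjusted p = 0.00608 under the median of ratios). Its partner *ORC6* fell in H82 (-0.58 ± 0.13, adjusted p = 0.00839), close to the median of all genes there, and the call was lost under the median of ratios (-0.09, adjusted p = 0.52) and without untreated replicate 1. *CDC6*, which loads the ring together with CDT1, rose in H82 from 79.3 ± 4.75 TPM (SD, n = 3) to 122 ± 6.92 TPM (0.62 ± 0.13, adjusted p = 0.00508), a call lost without untreated replicate 1 or 3. In H146 it had 81.4 ± 9.0 TPM (n = 3) untreated and 61.2 ± 17.5 TPM (n = 4) treated and did not pass (-0.45 ± 0.22, adjusted p = 0.124; -0.76 and adjusted p = 0.015 under the median of ratios).

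Of the MCM2 to MCM7 subunits, the ring itself, only *MCM5* passed the test on the deposited scale, in H146. In H82 none of the 6 passed. *MCM7* had 573, 512 and 583 TPM untreated and 416, 867 and 843 TPM treated, *MCM2* had 275, 238 and 268 TPM untreated and 216, 295 and 288 TPM treated, and *MCM3* had 221, 207 and 226 TPM untreated and 199, 236 and 212 TPM treated. In each, treated replicate 1 was the lowest of the 6 libraries and replicate 2 the highest. *MCM4* had 145, 145.8 and 140 TPM untreated and 83.7, 174 and 168 TPM treated, and *MCM6* had 132, 139 and 141 TPM untreated and 92.4, 172 and 162 TPM treated, with the same split. *MCM5* had 54.2, 48.8 and 52.9 TPM untreated and 50.7, 80.6 and 71.2 TPM treated, where replicate 1 lay within the untreated range. *MCM2* and *MCM3* passed as higher under the median of ratios (0.51 and 0.47) and as lower under quantile scaling (-0.30 and -0.32), whereas *MCM5* passed as higher under both (0.83, adjusted p = 0.00564, and 0.44, adjusted p = 0.0187). On the deposited scale the log2 fold changes of the 6 ran from -0.09 (*MCM4*) to 0.35 (*MCM5*), and without replicate 1 *MCM4* (0.25), *MCM5* (0.54), *MCM6* (0.29) and *MCM7* (0.62) passed as higher, with adjusted p = 0.013, 0.00284, 0.011 and 0.00118.

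In H146 *MCM5* rose from 68.8, 64.8 and 61.0 TPM to 78.6, 111, 96.5 and 90.9 TPM (0.52 ± 0.13, adjusted p = 0.0129), and the call was lost under the median of ratios (0.21, adjusted p = 0.24) and without untreated replicate 3 (0.48, adjusted p = 0.0537). *MCM2* had 486, 480 and 467 TPM untreated and 533, 548, 617 and 618 TPM treated, with the treated libraries all higher, yet it did not pass (0.27 ± 0.11, adjusted p = 0.0671; 0.30 and 0.0422 without treated replicate 2). *MCM6* had 234, 223 and 202 TPM untreated and 196, 188, 169 and 191 TPM treated, all lower (-0.24 ± 0.11, adjusted p = 0.0988). The rest of the ring stayed nearer to its untreated level. *MCM3* had 395, 417 and 337 TPM untreated and 379, 407, 399 and 404 TPM treated, *MCM4* had 235, 211 and 206 TPM untreated and 181, 186, 211 and 216 TPM treated, and *MCM7* had 492, 480 and 483 TPM untreated and 505, 490, 569 and 553 TPM treated. Their log2 fold changes were 0.06, -0.13 and 0.12. Under the median of ratios *MCM4* (-0.45) and *MCM6* (-0.56) passed as lower.

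Among the genes of helicase activation, 2 of 6 rose in H82, where 13.1% of all genes did, and 3 of 6 in H146, where 32.5% did. None fell on the deposited scale, and *MCM10* fell in H146 under the median of ratios (-0.51, adjusted p = 0.0171). *GINS4*, a subunit of the 4-part GINS complex, rose in both lines and had the largest rise of the set in H82. It went from 9.04, 7.96 and 7.33 TPM to 14.5, 18.9 and 21.4 TPM in H82 (1.07 ± 0.19, adjusted p = 0.00314) and from 7.69, 6.96 and 8.28 TPM to 15.0, 11.5, 21.0 and 21.7 TPM in H146 (1.04 ± 0.23, adjusted p = 0.00609). The treated mean was 2.25 and 2.26 times the untreated mean, and both calls held in each leave-one-out fit and under the 3 other scalings. An antisense transcript shares 21.0% of its exonic bases in GENCODE 44, and since the sources used here do not say whether counting used strand, reads of the pair may not be separated. The same limit applies to *MCM2* (23.6% shared with an antisense transcript) and *GINS3* (10.9%).

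*GINS2* (ENSG00000131153.9, chr16:85676198-85690073, minus strand) rose in H146 from 64.9, 64.2 and 67.2 TPM to 209, 185, 104 and 106 TPM (1.12 ± 0.25, adjusted p = 0.00752). The treated libraries fell into 2 pairs, with replicates 1 and 2 well above replicates 3 and 4. In H82 it had 84.1, 86.8 and 90.4 TPM untreated and 87.4, 117 and 104 TPM treated (0.23 ± 0.15, adjusted p = 0.232; 0.34 and 0.0112 without treated replicate 1). *GINS1* rose in H146 (0.79 ± 0.14, adjusted p = 0.00227), to 60.1 ± 8.72 TPM (n = 4) from 34.0 ± 1.24 TPM (n = 3), and not in H82 (-0.08 ± 0.20, adjusted p = 0.757). *CDC45*, which binds GINS and the ring, rose in H82 from 50.4 ± 2.63 TPM to 77.4 ± 18.6 TPM (n = 3 each; 0.58 ± 0.20, adjusted p = 0.0369), a call that was lost without any library but treated replicate 1, and had 0.06 ± 0.17 in H146 (adjusted p = 0.789). *GINS3* and *MCM10* did not pass in either line on the deposited scale, with log2 fold changes between -0.19 and 0.11.

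Among the replicative polymerases, *POLE* moved in opposite directions in the 2 lines. *POLE* (ENSG00000177084.19, chr12:132623753-132687376, minus strand), the catalytic subunit of polymerase epsilon, which copies the leading strand, fell in H82 from 64.8, 56.0 and 63.3 TPM to 19.6, 24.6 and 30.9 TPM. This was the largest change of the set in H82 (-1.28 ± 0.19, adjusted p = 0.00134), and it held in each leave-one-out fit and under the 3 other scalings. In H146 it had 40.4, 40.9 and 33.1 TPM untreated and 56.3, 51.8, 61.5 and 54.0 TPM treated, all higher (0.54 ± 0.12, adjusted p = 0.00775). The rise in H146 was lost under the median of ratios (0.23, adjusted p = 0.0893).

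The accessory subunit genes *POLD2* and *POLA2* rose in both lines. *POLD2*, of polymerase delta, went from 246, 223 and 264 TPM to 352, 459 and 456 TPM in H82 (0.78 ± 0.17, adjusted p = 0.00672), and from 201, 211 and 198 TPM to 260, 219, 363 and 382 TPM in H146 (0.55 ± 0.20, adjusted p = 0.049). *POLA2*, of the polymerase alpha-primase that starts each strand, went from 14.8, 15.2 and 16.4 TPM to 17.4, 33.3 and 30.1 TPM in H82 (0.71 ± 0.25, adjusted p = 0.042) and from 26.8, 27.7 and 22.1 TPM to 34.1, 32.0, 47.4 and 47.5 TPM in H146 (0.62 ± 0.18, adjusted p = 0.0211). Both calls in H146 were lost under the median of ratios (*POLD2* 0.23, adjusted p = 0.312, and *POLA2* 0.31, adjusted p = 0.116). In H146 the treated libraries of both genes were all above the untreated, with replicates 3 and 4 the highest. Apart from that of *POLD2* in H82, these calls depended on single libraries. That of *POLD2* in H146 was lost when any of 6 libraries was left out, treated replicate 2 being the exception (0.43 to 0.62 and adjusted p 0.0536 to 0.134 in the fits that lost it), and that of *POLA2* in H82 when any of 5 was left out, treated replicate 1 being the exception (0.54 to 0.76, adjusted p 0.0943 to 0.125). *POLA2* in H146 was lost without treated replicate 3 (0.53, adjusted p = 0.0541) or untreated replicates 1 (0.66, adjusted p = 0.0539) or 3 (0.52, adjusted p = 0.0865), and *POLA2* shares 16.8% of its exonic bases with another gene on its strand. *POLA1*, *PRIM1*, *POLD1*, *POLD3* and *POLE2* did not pass in either line on the deposited scale, with log2 fold changes between -0.32 and 0.36. Under the median of ratios *PRIM1* rose in H82 (0.84, adjusted p = 0.0101) and fell in H146 (-0.50, adjusted p = 0.028), and *POLE2* fell in H146 (-0.39, adjusted p = 0.0407). Without mitochondrial genes *POLD1* fell in H82 (-0.48, adjusted p = 0.0464). *PRIM1* also shares 10.9% of its exonic bases with another gene on its strand.

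The replication clamp, its loader and RPA act behind the helicase. Of the 10 genes for the clamp, its loader, RPA and the joining of Okazaki fragments, 5 rose and none fell in H82, where 13.1% of all genes rose and 45.5% fell, and without mitochondrial genes *LIG1* fell (-0.48, adjusted p = 0.0165). Their median was 0.53 against -0.56 for all genes, and 0.38 to 1.02 under the other scalings. The excess over all genes was 1.09 as deposited, 1.13 under the median of ratios and 1.11 without mitochondrial genes, but 0.42 under quantile scaling. In H146, 4 fell and 1 rose, where 15.5% of all genes fell and 32.5% rose. The median there was -0.21 against 0.25 for all genes, and -0.53 to -0.15 under the other scalings. The difference from all genes was -0.46, -0.49 and -0.46 in the same order, and -0.21 under quantile scaling. *RFC2* led in H82, from 133, 136 and 141 TPM to 219, 281 and 257 TPM (0.87 ± 0.15, adjusted p = 0.00224). In H146 it had 205, 204 and 231 TPM untreated and 197, 184, 203 and 226 TPM treated, which overlapped (-0.08 ± 0.11, adjusted p = 0.609).

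*RFC4* (ENSG00000163918.12, chr3:186789880-186807058, minus strand) rose in H82 from 121, 127 and 119 TPM to 188, 198 and 204 TPM (0.68 ± 0.12, adjusted p = 0.0031). In H146 it fell from 306, 269 and 312 TPM to 190, 217, 218 and 236 TPM (-0.46 ± 0.12, adjusted p = 0.0127), and the fall missed the threshold without untreated replicate 1 (-0.43, adjusted p = 0.0584) or 3 (-0.42, adjusted p = 0.0529). After treatment the means were 197 TPM in H82 and 215 TPM in H146, against 122 and 296 TPM before. *RFC3* (-0.54 ± 0.16, adjusted p = 0.0227) and *RFC5* (-0.34 ± 0.12, adjusted p = 0.0477), further subunits of the loader, also fell in H146 and did not pass in H82 on the deposited scale (0.09 and 0.36). In H82 both passed as higher under the median of ratios (0.58, adjusted p = 0.0104, and 0.85, adjusted p = 0.00184), and *RFC5* also under quantile scaling (0.48, adjusted p = 0.00848). The fall of *RFC3* was lost without untreated replicate 1 or 2, and that of *RFC5* whichever library was left out.

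The 3 subunits of RPA, which coats single-stranded DNA, rose in H82. *RPA1* (0.64 ± 0.20, adjusted p = 0.0272), *RPA2* (0.63 ± 0.16, adjusted p = 0.0126) and *RPA3* (0.58 ± 0.15, adjusted p = 0.0131) passed there. Each lost its call in at least 1 leave-one-out fit. Without treated replicate 2, *RPA2* and *RPA3* kept the call and *RPA1* lost it. In H146 *RPA1* rose (0.69 ± 0.16, adjusted p = 0.0074), *RPA3* fell (-0.33 ± 0.12, adjusted p = 0.0448, lost in 5 of the 7 leave-one-out fits) and *RPA2* did not pass (0.43 ± 0.16, adjusted p = 0.0549). *PCNA*, the clamp, had 539, 561 and 542 TPM untreated and 459, 835 and 705 TPM treated in H82, and 968, 956 and 1072 TPM untreated and 843, 750, 886 and 960 TPM treated in H146. It was the most abundant member in H146 and passed in neither line (0.24 and -0.22), though under the median of ratios it passed as higher in H82 (0.73) and lower in H146 (-0.54). *FEN1* and *LIG1*, which process and seal Okazaki fragments, did not pass either on the deposited scale (0.48 and -0.33 in H82, 0.47 and -0.20 in H146).

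Of the genes for deoxynucleotide supply, thymidine kinase moved in opposite directions. *TK1* (ENSG00000167900.12, chr17:78174091-78187233, minus strand) had 412, 393 and 479 TPM in untreated H146 and 206, 207, 267 and 268 TPM in treated H146 (-0.86 ± 0.15, adjusted p = 0.00199). In H82 it rose from 98.4, 80.1 and 98.9 TPM to 112, 185 and 163 TPM (0.70 ± 0.21, adjusted p = 0.0261), with treated replicate 1 nearest to the untreated libraries. The rise lost its call without any 1 library but treated replicate 1 (0.55 to 0.75, adjusted p 0.072 to 0.11). *RRM1* and *RRM2*, the ribonucleotide reductase subunits, did not pass in either line on the deposited scale. The difference between the lines did pass for *RRM1* (H146 minus H82, -0.89 ± 0.36, adjusted p = 0.0465, though 0.118 without treated H82 replicate 2). With libraries scaled by the median of ratios *RRM1* rose in H82 (1.08, adjusted p = 0.0175) and fell in H146 (-0.62, adjusted p = 0.00437), and under quantile scaling it fell in H146 (-0.33, adjusted p = 0.0443). In H82 *RRM2* had 54.6, 66.7 and 58.1 TPM untreated and 39.6, 109 and 99.7 TPM treated, and *RRM1* 82.6, 89.1 and 77.9 TPM untreated and 73.5, 174 and 154 TPM treated, so replicate 1 lay below and replicates 2 and 3 above the untreated libraries in both.

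None of the 4 genes for DNA methylation and chromatin assembly at the fork passed in either line on the deposited scale. *DNMT1* (-0.57 and -0.33) and *CHAF1A* (-0.57 and -0.33) passed as lower in H146, and *CHAF1B* (0.92 and 0.53) as higher in H82, under the median of ratios and quantile scaling. *UHRF1*, which guides the methyltransferase DNMT1 to new strands, had 115, 93.2 and 119 TPM untreated and 36.2, 116 and 122 TPM treated in H82, the largest standard error of the set there (-0.43 ± 0.45). On the deposited scale *DNMT1*, *CHAF1A* and *CHAF1B* had log2 fold changes of 0.03, -0.12 and 0.44 in H82 and of -0.25, -0.25 and 0.06 in H146. Of the recombination repair genes, *BRCA2* fell in H82 from 3.67, 4.75 and 3.79 TPM to 1.79, 2.48 and 2.63 TPM (-0.62 ± 0.21, adjusted p = 0.0358), near the median of all genes there, and was lost whichever library was left out. On the deposited scale *BRCA1* missed the threshold in H82 (-0.37 ± 0.14, adjusted p = 0.0515), and neither passed in H146 (-0.12 and -0.04).

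**Figure D4:**
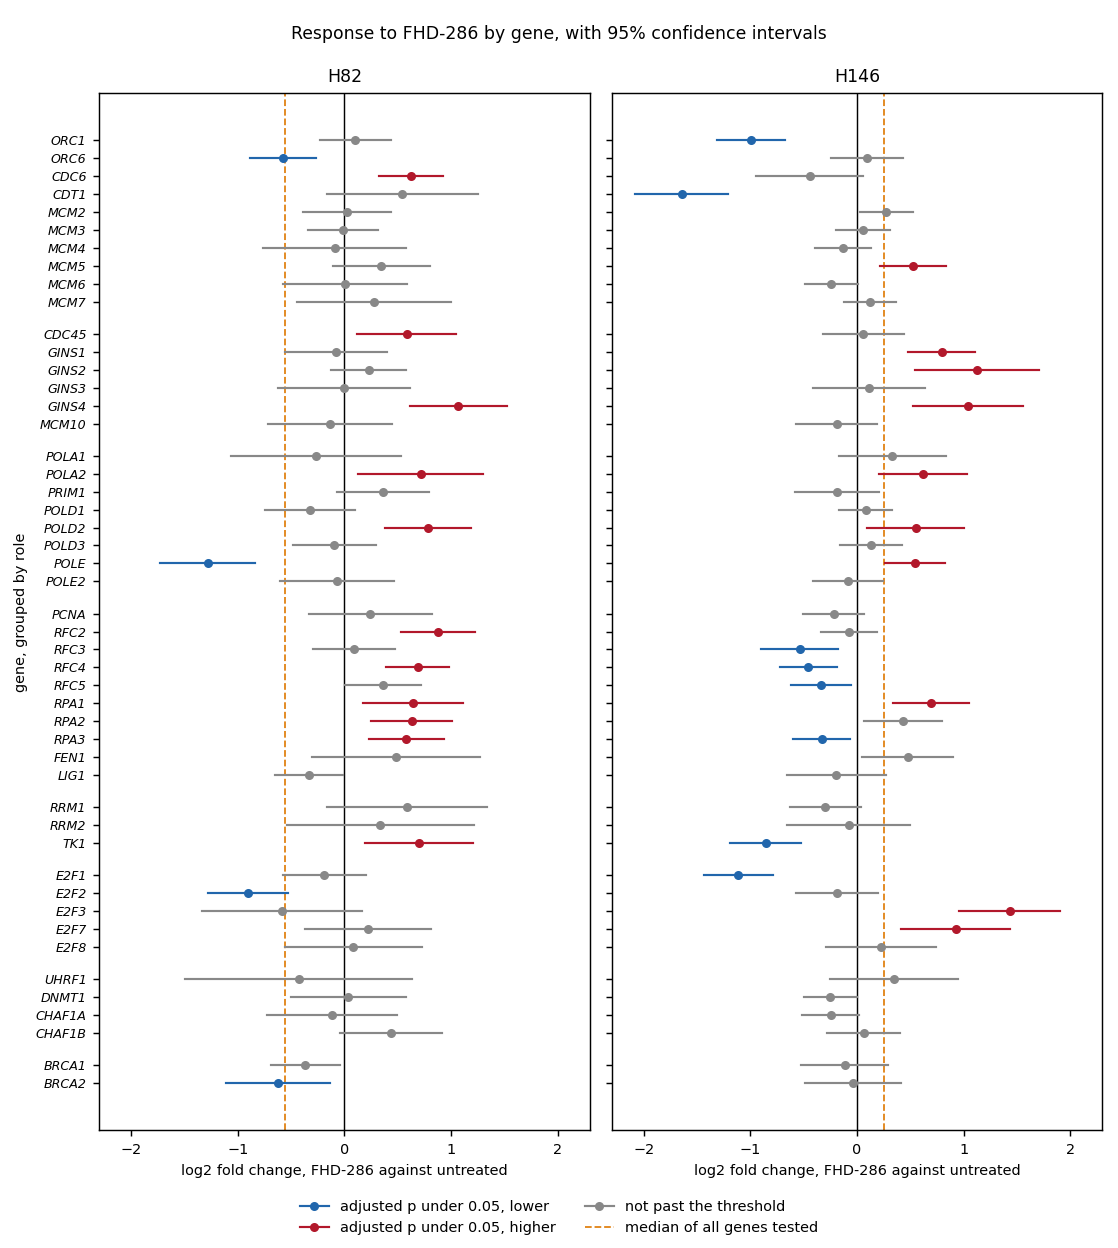
Points are log2 fold changes of FHD-286 against untreated with 95% confidence intervals for each of the 48 genes in H82 (left, 3 libraries a group) and H146 (right, 3 untreated and 4 treated), blue where lower and red where higher at an adjusted p under 0.05. POLE is the lowest point in H82 at -1.28 and CDT1 the lowest in H146 at -1.65, and the dashed line marks the median of all genes tested (-0.56 and 0.25).

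Part of the set responded differently in the 2 lines, a smaller share than among all genes. On the deposited scale no member fell in both, 4 rose in both (*GINS4*, *POLA2*, *POLD2*, *RPA1*), 4 passed in opposite directions (*POLE*, *RFC4*, *RPA3*, *TK1*) and 23 passed in neither. The calls of *POLA2* and *POLD2* in H146 were lost under the median of ratios. With that scaling *E2F2* fell in both lines, and *E2F7* and *GINS2* also rose in both. Across the 48 genes the log2 fold changes of the lines had a Pearson r of -0.06 and a Spearman rho of -0.04, as a description over genes measured in the same libraries, whereas the untreated levels had an r of 0.81 and a rho of 0.77. In a joint fit with an interaction term for line by treatment, 17 members passed, 11 with the lower response in H146 and 6 with the higher. Of all 23676 genes tested in that fit, 60.2% passed, so the members' share of 35.4% was below the background.

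The largest differences (H146 minus H82, log2 scale) were those of *CDT1* (-2.19 ± 0.37, adjusted p = 0.000318), *E2F3* (2.02 ± 0.40, adjusted p = 0.000857), *POLE* (1.82 ± 0.22, adjusted p = 2.42e-05), *TK1* (-1.56 ± 0.26, adjusted p = 0.000288), *RFC4* (-1.14 ± 0.16, adjusted p = 7.22e-05) and *ORC1* (-1.10 ± 0.19, adjusted p = 0.00036). These 6 were among 11 of the 17 that passed under the 3 other scalings and among 13 that passed in each of the 13 leave-one-out fits. Other differences depended on the scaling. Under the median of ratios those of *GINS1* (0.07, adjusted p = 0.79), *GINS2* (0.09, adjusted p = 0.85) and *E2F2* (-0.07, adjusted p = 0.77) were near 0. For *GINS4* the difference was -0.03 ± 0.31 (adjusted p = 0.947) on the deposited scale and -0.78 under the median of ratios (adjusted p = 0.025).

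**Figure D5:**
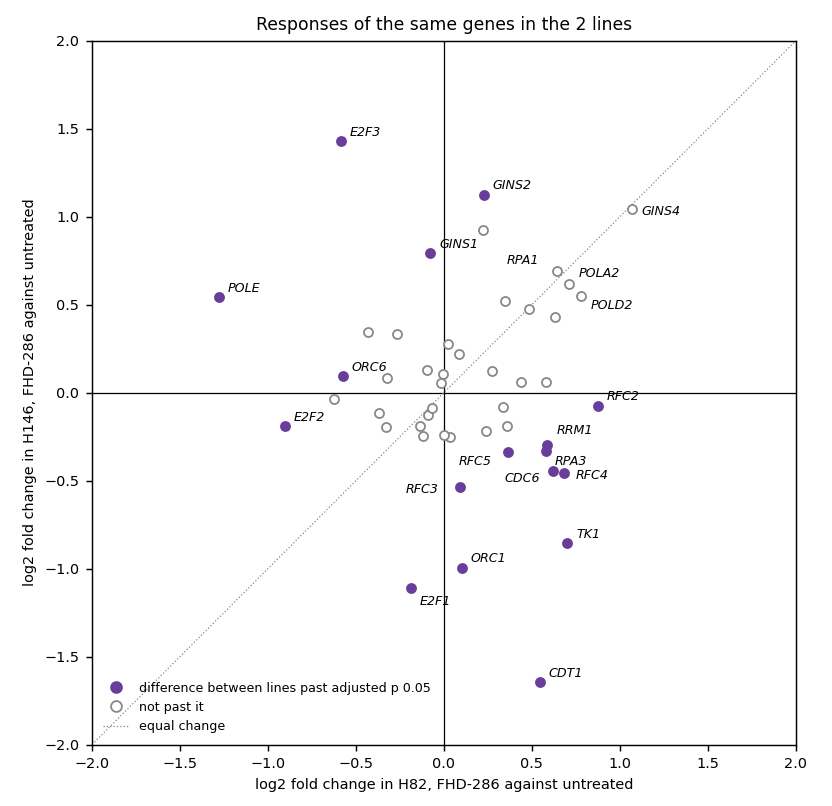
The log2 fold change of each of the 48 genes in H82 (horizontal axis) is set against that in H146 (vertical axis), filled where the difference between the lines passed an adjusted p of 0.05. E2F3 and POLE lie at the upper left, CDT1 and TK1 at the lower right, and GINS4 near the dotted line of equal change.

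For *CDT1*, *E2F1*, *TK1* and *E2F3* the mean levels of the lines were closer after treatment than before, which is given as a description. These genes were taken from those whose response differed between the lines, and no count over all members is given. The untreated means of *CDT1* were 448 TPM in H146 and 56.6 TPM in H82, and the treated means 145 and 86.2 TPM. For *E2F1* they were 614 and 121 TPM untreated and 284 and 106 TPM treated, for *TK1* 428 and 92.5 TPM untreated and 237 and 154 TPM treated, and for *E2F3* 15.7 and 88.7 TPM untreated and 44.7 and 62.9 TPM treated. The reverse held for *POLE*, at 38.1 and 61.4 TPM untreated and 55.9 and 25.0 TPM treated. It also held for *ORC1*, at 63.2 TPM in H146 and 48.4 TPM in H82 untreated and 31.3 and 52.1 TPM treated.

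Other genes of the same pathways, listed by role and not by response, were 66, of which 65 were tested in each line. In H82, 16 of the 65 fell (24.6%, against 45.5% of all genes) and 6 rose (9.23%, against 13.1%). In H146, 10 fell (15.4%, close to the 15.5% of all genes) and 13 rose (20.0%, against 32.5%). Under the median of ratios the counts were 5 and 15 in H82, and 24 and 3 in H146, to which the shares of all genes on the deposited scale do not apply. *RB1*, which restrains the activator E2Fs, fell in both lines, from 7.78 ± 0.615 to 1.64 ± 0.0541 TPM in H82 (-1.73 ± 0.18, adjusted p = 0.000369) and from 9.82 ± 1.69 (n = 3) to 5.18 ± 1.21 TPM (n = 4) in H146 (-0.82 ± 0.20, adjusted p = 0.00948). The fall of *RB1* in H146 missed the threshold without untreated replicate 1 (-0.69, adjusted p = 0.0502). On the deposited scale *POLD4*, a small polymerase delta subunit, was the only other of the 65 to fall in both (-1.17 ± 0.27, adjusted p = 0.00906 in H82, and -0.50 ± 0.18, adjusted p = 0.0495 in H146). Its level in H82 was low, at 3.84, 3.06 and 2.35 TPM untreated and 1.45, 0.41 and 0.67 TPM treated.

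The largest falls in H82 beside *RB1* were those of *MCM8* (-1.50 ± 0.21, adjusted p = 0.00118), a helicase of recombination repair, and *HELLS* (-1.29 ± 0.19, adjusted p = 0.00122), a remodeller linked to DNA methylation. The largest rises there were those of the polymerase epsilon subunit gene *POLE4* (1.03 ± 0.18, adjusted p = 0.00261), thymidylate synthase *TYMS* (0.98 ± 0.31, adjusted p = 0.0299) and the histone chaperone *ASF1B* (0.90 ± 0.30, adjusted p = 0.0341). Those of *TYMS* and *ASF1B* were lost without any 1 library but treated replicate 1 (0.71 to 1.07 and 0.68 to 0.97). *POLE4* rose in the line in which *POLE* fell. In H146 *HELLS* did not pass on the deposited scale (-0.36). It passed as lower there under the median of ratios (-0.66, adjusted p = 0.0127) and quantile scaling (-0.56, adjusted p = 0.0278).

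In H146 the largest falls beside *RB1* were those of the exonuclease gene *EXO1* (-0.73 ± 0.12, adjusted p = 0.00188) and of *DUT* (-0.68 ± 0.13, adjusted p = 0.00391), whose product removes dUTP and which rose in H82 (0.71 ± 0.14, adjusted p = 0.00505). The largest rises were those of *MCM9* (1.04 ± 0.19, adjusted p = 0.00261), the partner of MCM8, of the ribonucleotide reductase gene *RRM2B* (0.78 ± 0.14, adjusted p = 0.00274) and of the phosphatase gene *CDC25A* (0.75 ± 0.14, adjusted p = 0.00344). *MCM8* rose there as well (0.74 ± 0.21, adjusted p = 0.0208), though not under the median of ratios (0.43, adjusted p = 0.082) nor without untreated replicate 3 (0.62, adjusted p = 0.0895). Of the E2F-driven cyclins, *CCNE1* rose (0.68 ± 0.19, adjusted p = 0.0183) and *CCNE2* fell (-0.50 ± 0.16, adjusted p = 0.0315) in H146, and neither passed in H82. Under the median of ratios *CCNE1* no longer passed in H146 (0.37, adjusted p = 0.1).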

How the data were processed

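RNA was isolated and sequenced at Genewiz. Per the submitters' notes and the study's methods, reads were trimmed with Trim Galore 0.4.4, mapped to hg38 and counted per gene with STAR and GENCODE 28, and compared with DESeq2. The authors deposited TPM for 13 libraries in 2 tables. How gene length was taken, the strand setting and the read depth are not given in the sources used here, so no counting interval was possible and precision rests on the spread between libraries.

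Each line was fitted in R 4.3.3 with limma 3.58.1 (eBayes with trend) on log2(TPM + 1), treated against untreated. Fold changes on that scale understate those of low genes. The filter kept genes that reached 1 TPM in 3 or more libraries of a line. The tests were two-sided at an adjusted threshold of 0.05, with p values adjusted by Benjamini-Hochberg across the whole table. The difference between lines was the interaction in 1 fit over 13 libraries. The fits were tested on simulated data. Members, role groups and the 66 related genes were chosen with earlier results of these data known. Values in every library are given for the 8 members with the largest called change in each line, the 5 E2F genes, MCM2 to MCM7 and the 6 largest interactions, and summary values for the 3 largest rises and falls among related genes. Other genes given with their levels, values of the last named genes in the other line, and marker genes were chosen after their values were seen. Gene positions are from GENCODE 44 and promoters from RefSeq, both on hg38. Alternatives were a pseudocount of 0.1, no filter, a mean TPM of at least 5, median of ratios, quantile scaling, omission of mitochondrial genes, no trend, the replicate number as a block, a log2 fold change of at least 1, and each library left out. A related gene is not reported here.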

Additional observations from a re-analysis of the deposited data

Results flagged for a closer look

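In treated H146 the highest *CDT1* value, 201 TPM in replicate 2, lay far from the other 3 libraries, which had 124 to 130 TPM. This was the 1 of 21 groups of 4 libraries tested in which an end value stood apart by Dixon's criterion, which chance meets in about 1 group in 20, and it still lay below the lowest untreated library. Among the named members, the response differed between the lines (interaction, H146 minus H82 on the log2 scale) for *CDT1* (-2.19), *E2F3* (2.02), *POLE* (1.82), *TK1* (-1.56), *RFC4* (-1.14), *ORC1* (-1.10), *RFC2* (-0.95), *E2F1* (-0.92), *GINS2* (0.90) and *E2F2* (0.71). In H146 *POLE* rose and in H82 it fell, and *TK1* and *RFC4* did the opposite. The differences of *GINS2* and *E2F2* missed the threshold in at least 1 leave-one-out fit (largest adjusted p = 0.0654 and 0.0511), and both were near 0 under the median of ratios. The 11 members whose difference passed under each scaling included the other 8 named here.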

How the results depend on the processing

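Counts depended on scaling and on single libraries. The shares of all genes called are given for the deposited scale alone, so the counts below have no such share beside them. Under the median of ratios 2 members fell and 25 rose in H82 (4 and 11 as reported), 21 fell and 6 rose in H146 (8 and 10), 35 differed between lines (17), and the members' median was 0.58 in H82 and -0.29 in H146. The related genes then gave 5 lower and 15 higher in H82 (16 and 6) and 24 lower and 3 higher in H146 (10 and 13). Quantile scaling gave 10 and 11 related genes in H82 and 16 and 8 in H146. Omitting mitochondrial genes gave 7 members lower and 7 higher and 26 related genes lower in H82. Requiring a log2 fold change of at least 1 left 1 member lower and 1 higher in H82, 2 and 3 in H146, 7 differing between lines, and 7 and 1 related genes in H82 and 0 and 1 in H146. Without a filter 3 related genes rose in H82 and 6 fell in H146. Leaving out 1 library gave 2 to 5 members lower and 4 to 24 higher in H82, 4 to 8 lower and 7 to 15 higher in H146, and 14 to 25 differing between lines. The related genes ranged from 8 to 19 lower and 2 to 17 higher in H82 and from 3 to 12 lower and 4 to 20 higher in H146. Among values past the threshold in either fit, the direction reversed for 3, none of them past it on the deposited scale. These were *MCM2* in H82 under quantile scaling (-0.30, adjusted p = 0.0477), *MCM3* in H82 under the median of ratios (0.47, adjusted p = 0.0159) and *MCM4* in H82 without treated replicate 1 (0.25, adjusted p = 0.013, against a lowest value of -0.28 when another library was left out). Of 926 recomputed values of named genes, 835 kept their side of the threshold, 61 lost a call and 27 gained one. The 835 include values that changed sign without passing in either fit. An example is *E2F1* in H82, at -0.19 as deposited and 0.30 under the median of ratios. The cause of these shifts was not tested.

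Replicate numbers are shared between groups, but same-numbered libraries did not deviate together (correlations of -0.11 to 0.03), so they share only a number. With the replicate number as a block, 3 members fell and 11 rose in H82, 6 fell and 7 rose in H146, and 3 related genes fell and 3 rose in H146. Depth is unknown from TPM, so what depth limits cannot be given.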
